A study of Mus musculus with 2 samples.

Results

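Autism has been linked to damaging variants in many genes whose products act on chromatin or on other basic regulatory steps of the cell. The list described here holds 35 such mouse genes, chosen by name, of 43346 mouse genes in the files and of 21474 that are annotated as protein-coding. They were measured in total RNA from the forebrain of embryos of the strain B6NCrl (sexes mixed) at 15.5 days, and the labels give no treatment and no genetic modification. The 2 libraries form 1 group, with tissue of 78 embryos in replicate 1 and of 62 embryos in replicate 2. Each value is therefore an average over many embryos and over all cell types of the dissected tissue, and the spread between the libraries is a spread between pools.

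Chromatin regulators work in classes. Remodellers use ATP to move or eject nucleosomes, histone methyltransferases and demethylases write and erase marks on the histone tails, and readers, adaptors and cofactors recruit these enzymes to marked nucleosomes, transcription factors or RNA polymerase. At this stage the forebrain holds dividing progenitors beside newborn neurons that are taking on their identity, and mutations in these genes are known for dominant developmental disorders in which loss of a single gene copy is enough to cause disease. The other genes of the list are DNA-binding factors, ubiquitin ligases, regulators of growth signalling, translation and protein acetylation, and large proteins of the cytoskeleton and membrane.

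The libraries held 38720511 and 35103430 expected counts (reads assigned by the authors' model) in replicates 1 and 2, and the listed genes received between 278 reads (Adnp in replicate 1) and 27624 reads (Tcf4 in replicate 1). The markers did not go against the forebrain label: all 10 forebrain markers were at 10 TPM or more in both libraries. Here TPM is a level corrected for transcript length and scaled to the same total in each library. The highest were Tubb3 (1512 and 1507 TPM), Neurod6 (393 and 385 TPM) and Dlx1 (245 and 234 TPM). Of 10 genes chosen as markers of other brain regions and tissues, only Gbx1 reached 1 TPM in both libraries (1.03 and 1.89). Of the 10, 3 were listed at 0 in both, Hoxb8 among them, and the 10 summed to 2.22 and 4.78 TPM. The tissue also held RNA of blood, choroid plexus, mesenchyme, vessels and microglia: all 8 of their markers passed 10 TPM, from C1qb at 25.3 and 23.3 TPM to Hba-a2 at 5025 and 4682 TPM. In such bulk RNA, a lower level from fewer expressing cells and a lower level from less RNA per cell cannot be told apart. With 1 group of 2 libraries there is no contrast between groups, and an exact two-sided sign-flip test over the libraries cannot give a p below 0.5, so no test is reported and differences are set against the spread between the libraries.

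All 35 genes were detected at 1 TPM or more in both libraries, against 60.6% of protein-coding genes. At 10 TPM or more in both libraries stood 32 of 35, against 40.9% of protein-coding genes, and at 100 TPM or more stood 3 of 35 (Tcf4, Zmynd11 and Chd3), against 7.55%. The median gene of the list was at 29.3 TPM in replicate 1 and 31.5 TPM in replicate 2, and the median protein-coding gene at 4.79 and 4.69 TPM. On the log2(TPM + 0.1) scale the list median lay 2.65 ± 0.09 (SD, n = 2) above that of protein-coding genes, which is 6.29-fold on that scale. Each of the 35 had a mean TPM above the protein-coding median, from the 51.3rd percentile (Asxl3) to the 98.9th (Tcf4), with a median percentile of 75.9. The distance depended on the genes compared: among the 13020 detected at 1 TPM in both libraries, the list median lay only 0.54 above on the same scale, at the 60.3rd percentile. The listed genes were thus all present, with quartiles of their mean levels at 17.5 and 52.0 TPM and a few abundant ones.

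**Figure D1:**
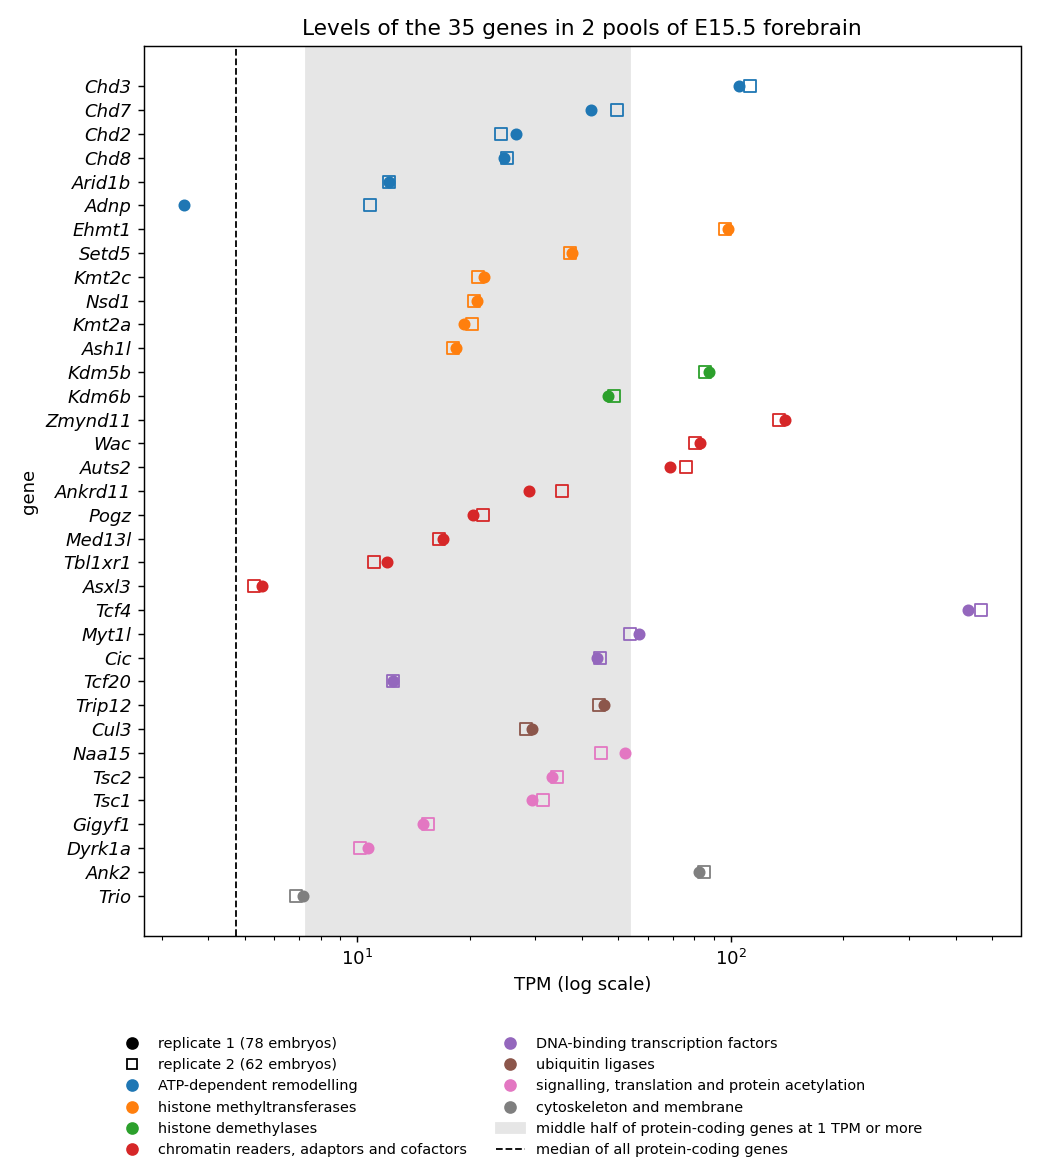
TPM (log scale) of each of the 35 genes in replicate 1 (filled circles) and replicate 2 (open squares), coloured by role, with the median of all 21474 protein-coding genes (dashed line, 4.75 TPM) and the interquartile range of those detected at 1 TPM (grey, 7.29 to 53.8 TPM). The markers of each gene nearly coincide except for Adnp, and Tcf4 stands alone at the top with 432 and 467 TPM.

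Many listed genes are represented in the annotation by several transcript models, and the deposited tables divide each gene's reads among them. Whether reads of unspliced RNA in these total RNA libraries went to retained-intron models was not tested. A share of TPM is a share per length, so a short model can hold most of a gene's TPM with few of its reads. The levels by role are therefore given for all transcripts and, beside that, for complete coding transcripts, meaning models annotated as coding with both ends of the coding sequence complete and not shorter in the files than that coding sequence. By this narrower measure 24 of 35 genes were at 10 TPM or more in both libraries, against 36.9% of protein-coding genes. The list median was 15.9 and 15.8 TPM. By role, the median of the mean levels was 14.2 TPM for remodelling, 13.6 for methyltransferases, 55.1 for demethylases and 16.5 for readers, adaptors and cofactors. It was 33.9 TPM for DNA-binding factors, 13.6 for ubiquitin ligases, 15.3 for signalling, translation and acetylation, and 6.88 for cytoskeleton and membrane. Of the 6 methyltransferases, 3 were at 10 TPM or more by this measure and 6 by all transcripts.

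Among the 6 genes of ATP-dependent remodelling the median was 25.7 TPM in replicate 1 and 24.8 TPM in replicate 2. Chd3, an ATPase of the NuRD deacetylase complex, was the most abundant at 105 and 113 TPM (109 ± 6.02, SD, n = 2). Its reads lay mainly in the coding transcript Chd3-202, which held 68.1% and 66.4% of them, whereas by TPM that transcript (36.6% and 35.9%) was level with Chd3-203, a retained-intron model at 36.3% and 39.4%. Chd3-203 covers the 3′ end of the gene, and 2064 of its 2153 bases also lie in exons of Chd3-202. Complete coding transcripts of Chd3 summed to 41.6 and 45.2 TPM.

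Chd7, the remodeller mutated in CHARGE syndrome, was at 42.4 and 49.5 TPM. Its full-length coding transcript Chd7-202, with 38 exons and 8958 coding bases, was at 5.88 and 6.52 TPM. The short complete coding transcript Chd7-206, which has 5 exons and 2823 coding bases, was higher at 10.8 and 12.6 TPM, and all of its 3462 bases are also exonic in Chd7-202. An incomplete model of 2381 bases at the 5′ end, Chd7-203, led with 57.1% and 58.5% of the gene's TPM. Per read the order differed: Chd7-202 held 38.0% and 36.6%, Chd7-203 35.2% and 36.7%, and Chd7-206 23.2% and 23.6%.

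Chd2 was at 26.6 and 24.3 TPM, and Chd8, which binds promoters and is among the genes most often mutated in autism, at 24.8 and 25.2 TPM. In both, 1 coding transcript took nearly all reads: Chd2-203 held 91.8% and 92.1% and Chd8-201 held 91.0% and 90.6%. Their shares of TPM were lower, at 40.6% and 42.4% for Chd2-203 and 68.8% and 68.1% for Chd8-201. For Chd2 the rest of the TPM lay mostly in short incomplete models, among them Chd2-201 with 29.8% and 29.1% of TPM on 4.92% and 4.62% of reads. Chd2 also shares 2628 exonic bases, on the same strand, with the noncoding gene 1810026B05Rik (34.9 and 37.5 TPM).

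Arid1b, a subunit that defines 1 form of the BAF remodelling complex, was at 12.2 TPM in both libraries. Arid1b-203 led with 67.8% and 68.0% of TPM, and the other main coding transcript, Arid1b-202, held 25% and 19.3%. Their coding sequences are 5286 and 6732 bases long, and 1 internal coding exon of 90 bases, a multiple of 3, is in Arid1b-202 and not in Arid1b-203. It lies on chromosome 17 at chr17:5264032-5264121, plus strand, in the mm10 assembly, and is shown because its use separates the Arid1b transcripts.
Arid1b 90-base exon: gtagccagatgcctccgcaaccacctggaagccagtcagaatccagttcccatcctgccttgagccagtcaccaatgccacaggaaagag
Complete coding transcripts with this exon summed to 3.19 and 2.77 TPM and those without it to 8.31 and 8.28 TPM. Models with the exon thus held 27.7% and 25.1% of complete Arid1b TPM. The exon makes up only part of the difference in coding length between Arid1b-202 and Arid1b-203. Reads over the exon itself were not counted.

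Adnp, a zinc finger and homeobox protein that forms a complex with Chd4 and heterochromatin protein 1, was the only listed gene whose libraries disagreed widely, with 3.44 TPM in replicate 1 and 10.8 TPM in replicate 2, on 278 and 835 reads. It shares 4393 exonic bases on the same strand (chromosome 2, minus) with Gm20716, a gene model annotated as protein-coding that was at 22.0 and 23.9 TPM on 2672 and 2661 reads. The deposited read numbers of both genes are fractional, as estimated counts are where reads are divided between genes, whereas 27 of the 35 listed genes had whole numbers in both libraries. Summed over the 2 genes, the locus held 2950 and 3496 reads. The level of Adnp alone was 7.12 ± 5.20 TPM (SD, n = 2), and the part that the division of reads had in this spread was not tested.

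The 6 histone methyltransferases had a median of 21.4 and 20.9 TPM and lay between 18.1 and 21.9 TPM in either library except for Ehmt1 and Setd5. Ehmt1, which places repressive methyl marks as a partner of Ehmt2, was highest at 98.5 and 96.5 TPM. Its TPM was spread over 15 models: the coding transcripts Ehmt1-203 (24.2% and 25.8%) and Ehmt1-205 (17.2% and 18.0%) together held most of the reads, and the incomplete 884-base model Ehmt1-211 held 22.7% and 23.6% of TPM on 6.02% and 6.12% of reads. Setd5 was at 37.5 and 37.2 TPM, with no model above 18.3% in either library. Retained-intron and other noncoding models held 79.0% and 75.7% of its TPM, and its complete coding transcripts summed to 5.26 and 5.48 TPM with 27.4% and 27.5% of its reads. The leading Setd5 model also differed between libraries: the retained-intron model Setd5-208 led replicate 1 at 16.6% and the noncoding model Setd5-212 led replicate 2 at 18.3%.

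Kmt2c and Kmt2a, both very large enzymes that methylate histone H3 at enhancers and promoters, were at 21.9 and 21.1 TPM and at 19.3 and 20.3 TPM. The full-length Kmt2c-201, with 14712 coding bases in 59 exons, held 21.5% and 24.6% of the gene's TPM (4.70 and 5.19 TPM) and 41.0% and 45.4% of its reads. An incomplete model of the 3′ part, Kmt2c-208, led with 45.8% and 45.2% of TPM, and 4467 of its 6443 bases are shared with Kmt2c-201. For Kmt2a the leading model by share of TPM differed between libraries, by a narrow margin in replicate 1. Full-length Kmt2a-201 was at 46.9% and 35.9% of TPM and the incomplete 5′ model Kmt2a-203 at 46.6% and 51.6%. The posterior intervals of both overlapped between libraries, and the posterior mean share of Kmt2a-201 was lower, at 28.3% and 26.5%. By posterior mean share Kmt2a-203 led in both libraries, at 46.4% and 51.3%. A further complete coding model, Kmt2a-202, held 24.1% and 20.7% by that measure. Counted in reads, Kmt2a-201 held 72.2% and 59.0% and Kmt2a-203 held 18.6% and 22.0%.

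Nsd1, the enzyme mutated in Sotos syndrome, had a single transcript model and was at 20.9 and 20.6 TPM. Ash1l was at 18.4 and 18.1 TPM, and its 2 complete transcripts, Ash1l-202 (83.5% and 70.6%) and Ash1l-201 (11.6% and 24.2%), encode the same coding sequence of 8874 bases. Ash1l overlaps Dap3 on the opposite strand by 352 exonic bases. Dap3 was at 136 and 138 TPM, and no source used here states whether the counting used strand. By complete coding transcripts Nsd1, Ash1l and Kmt2a lay between 9.63 and 20.9 TPM in either library. The other methyltransferases lay outside that range, with Kmt2c at 4.70 and 5.19 TPM, Setd5 at 5.26 and 5.48 TPM and Ehmt1 at 48.6 and 49.6 TPM.

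Both demethylases were above the list median. Kdm5b, which removes the methyl mark of active promoters, was at 87.7 and 85.3 TPM, and Kdm6b, which removes the Polycomb mark, at 46.9 and 48.7 TPM. Kdm6b was almost a single message, with Kdm6b-201 at 94.1% and 93.9% of TPM and 99.4% of reads in both libraries. Kdm5b used 2 complete coding transcripts: Kdm5b-203 at 46.8% and 46.7% of TPM and Kdm5b-201 at 28.9% and 28.8%, and both had the same share of reads, 43.9% in replicate 2. Kdm5b-201 has a coding sequence of 4632 bases against 4551, and 3784 of its 8714 bases lie outside the exons of Kdm5b-203. The share of Kdm5b-203 differed by 0.150 percentage points between the pools.

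The 8 readers, adaptors and cofactors ran from 5.42 to 138 TPM by mean, with medians of 24.6 and 28.5 TPM. Zmynd11, a reader of a histone mark of transcribed gene bodies, was highest at 140 and 135 TPM (138 ± 3.71, SD, n = 2). Its leading transcript, Zmynd11-206, held 34.2% and 27.7% of TPM and lacks 1 internal coding exon of 162 bases that Zmynd11-205 (12.7% and 8.13%) contains. The exon is a multiple of 3 long and lies at chr13:9710146-9710307, minus strand, in mm10. It is shown because it divides the coding transcripts of this gene.
Zmynd11 162-base exon: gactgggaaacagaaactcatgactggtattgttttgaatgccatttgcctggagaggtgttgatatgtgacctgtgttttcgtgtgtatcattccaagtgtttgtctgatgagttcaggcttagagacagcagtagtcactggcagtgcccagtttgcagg
The 4 complete transcripts with the exon summed to 39.1 and 32.9 TPM and the 3 without it to 53.9 and 55.5 TPM. Models with the exon thus held 42.0% and 37.2% of complete Zmynd11 TPM, and reads over the exon itself were not counted. Single Zmynd11 transcripts were less stable than these sums: Zmynd11-201 was at 0 TPM in replicate 1 and 10.1 TPM in replicate 2.

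Wac, which links histone ubiquitination to transcription, was at 82.8 and 80.4 TPM, divided among 3 complete coding transcripts at 36.9% and 45.2% (Wac-201), 24.1% and 22.3% (Wac-202) and 16.9% and 15.7% (Wac-207). Auts2, a partner of Polycomb group proteins in neurons, was at 69.0 and 76.1 TPM. Its leading model, Auts2-207, held 57.1% and 53.1% of TPM and 76.1% and 72.5% of reads. That model has 19 exons, spans 1106 kilobases, the whole gene, and is annotated as a processed transcript with no coding sequence. Complete coding transcripts of Auts2, led by Auts2-208 (5.92 and 8.42 TPM), summed to 7.62 and 10.6 TPM. Of these 8 genes Auts2 had the smallest share of TPM in complete coding transcripts. It ranked 3 of 8 by all transcripts and was the lowest but Asxl3 by complete coding transcripts. The latter rank rests on the annotated class of Auts2-207, whose coding potential was not tested. Of the 7409 bases of Auts2-207, 3188 lie in exons of Auts2-208.

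Ankrd11, a cofactor that binds deacetylases, was at 28.8 and 35.4 TPM. Ankrd11-202 held 72.1% and 65.4%, and the retained-intron model Ankrd11-204 held 22.0% and 27.1%, going from 6.34 to 9.57 TPM with posterior intervals that did not overlap. Pogz, a zinc finger protein that binds heterochromatin protein 1, was at 20.4 and 21.7 TPM, with Pogz-205 at 77.3% and 71.1%. Med13l, a subunit of the Mediator kinase module, has a single model and was at 17.0 and 16.6 TPM. Tbl1xr1, an exchange factor of the NCoR corepressor, was at 12.0 and 11.1 TPM, with Tbl1xr1-201 at 94.1% and 82.8%. Asxl3, a cofactor of the Bap1 deubiquitinase, was lowest of the whole list by mean TPM at 5.56 and 5.28 (5.42 ± 0.198, SD, n = 2). Only 50% and 52.5% of that was Asxl3-201, and the retained-intron model Asxl3-203, of whose 3916 bases only 83 lie in exons of Asxl3-201, held 31.4% and 33.2%.

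The 4 DNA-binding factors ran from 12.5 to 450 TPM by mean. Tcf4, the E-protein that pairs with proneural bHLH factors and is mutated in Pitt-Hopkins syndrome, was at 432 and 467 TPM (mean 450), far above Zmynd11, the next of the list, in each library. Its complete coding transcripts held 95.7% of TPM in both libraries. Tcf4-204, a short form with 1533 coding bases, led with 54.2% and 54.5%, ahead of Tcf4-205 (21.4% and 21.5%), Tcf4-207 (9.21% and 8.24%) and Tcf4-202 (7.53% and 8.30%), each with 2010 coding bases. Of the reads, Tcf4-204 held 34.1% and 34.4%. The short form was thus the leading Tcf4 message per length, while the 3 longer ones together held most of the reads. Tcf4-204 is 1815 bases long in the files and 2437 in the newer annotation that gives the coding lengths. Tcf4-205 (2360 against 2192 bases) and Tcf4-207 (7402 against 8577 bases) differ as well. The lead of Tcf4 was smaller with all reads of a gene set over its longest complete coding transcript. By that measure Tcf4 was at 162 and 174 TPM, Ank2 at 105 and 108 TPM and Zmynd11 at 93.7 and 90.9 TPM.

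Myt1l, a zinc finger factor that represses non-neuronal genes in neurons, was at 56.8 and 53.9 TPM, all of it in 2 coding transcripts, Myt1l-202 (67.4% and 68.3%) and Myt1l-201 (32.6% and 31.7%), whose coding sequences are 3561 and 3555 bases long. Cic, the repressor Capicua, was at 43.9 and 44.7 TPM, but 52.3% and 53.0% of this was Cic-204, an incomplete model of 455 bases at the 3′ end. All 455 of its bases lie in exons of the full-length Cic-212, and it received 9.00% and 8.91% of the reads. Cic-212 held 13.3% and 13.4% of TPM and 52.3% and 51.2% of reads, and complete coding transcripts of Cic summed to 6.81 and 6.73 TPM. Tcf20, a nuclear factor related to Rai1, was at 12.5 TPM in both libraries and used Tcf20-202 (61.3% and 55.2%) and Tcf20-201 (38.7% and 44.8%).

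The ubiquitin ligases Trip12 and Cul3 were at 45.8 and 44.3 TPM and at 29.3 and 28.4 TPM. Full-length coding transcripts of both were a minority of TPM and a majority of reads: in Trip12 they held 34.8% and 37.2% of TPM with 79.6% and 81.2% of reads, and in Cul3 37.7% and 38.0% of TPM with 86.3% and 86.6% of reads. In Cul3, the scaffold of a large family of ubiquitin ligases, the rest was in 2 models of 543 and 532 bases, Cul3-205 (31.0% and 34.0%) and Cul3-204 (30.6% and 28.0%). Trip12 showed the largest disagreement in a leading share: Trip12-201 went from 33.9% to 19.0% while Trip12-206, with a coding sequence of the same 6075 bases, went from 0 to 16.2%. The sum of complete Trip12 transcripts stayed at 15.9 and 16.5 TPM, and the posterior intervals of both transcripts overlapped between libraries.

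Of the 5 genes of growth signalling, translation and protein acetylation the lowest was Dyrk1a, a dosage-sensitive kinase, at 10.7 and 10.2 TPM with Dyrk1a-201 at 84.6% and 80.6%. Naa15, which anchors the N-terminal acetyltransferase NatA to the ribosome, was at 52.2 and 44.9 TPM. Naa15-201 held 47.1% and 53.4% of its TPM, and the incomplete 712-base model Naa15-202 held 29.0% and 30.2% on 5.11% and 4.85% of reads. Gigyf1, a translational repressor that works with Eif4e2, was at 15.0 and 15.5 TPM, and Tsc2 at 33.3 and 34.2 TPM, each with a single model. Tsc2 overlaps Pkd1 on the opposite strand by 693 exonic bases, and Pkd1 was at 7.21 and 7.23 TPM.

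Tsc1 and Tsc2 form the complex that restrains mTOR signalling, and by all transcripts they were nearly level, with Tsc1 at 29.4 and 31.5 TPM. Tsc2 has a single coding model, so only the reads of Tsc1 could be divided among message types. The leading Tsc1 model, Tsc1-207 at 40.5% and 40.3% of TPM and 50.1% and 49.2% of reads, is annotated as a target of nonsense-mediated decay, the pathway that degrades messages with an early stop. Complete coding Tsc1 transcripts summed to 4.98 and 5.50 TPM, led in reads by Tsc1-202 with 19.7% and 21.7%. The single Tsc2 model, to which all Tsc2 reads go by annotation, was at 33.3 and 34.2 TPM. Tsc1-207 shares 5063 of its 5103 bases with Tsc1-202, so its share rests on how the authors' model divided shared reads. The 2 longest other stretches of Tsc1-207 are extensions of 20 and 15 bases at the start of internal exons. They lie at chr2:28675643-28675767 and chr2:28678952-28679118 on the plus strand in mm10. Both exons are shown with the extensions in capitals, because they are nearly all of the sequence that Tsc1-207 has and Tsc1-202 lacks.
Tsc1-207 exon of 125 bases: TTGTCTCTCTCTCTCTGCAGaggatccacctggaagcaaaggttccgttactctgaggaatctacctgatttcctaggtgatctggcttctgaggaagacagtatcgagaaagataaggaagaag
Tsc1-207 exon of 167 bases: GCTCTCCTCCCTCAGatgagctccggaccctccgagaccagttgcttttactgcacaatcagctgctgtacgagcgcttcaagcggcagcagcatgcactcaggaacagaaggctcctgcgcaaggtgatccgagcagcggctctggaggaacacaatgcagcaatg
The 20-base extension is not a multiple of 3 and so shifts the frame, and the annotated coding sequence of Tsc1-207 ends after 1377 bases, against 3465 in Tsc1-202. Both extensions end in AG, as introns do, and are rich in T and C.

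Of the 2 genes of the cytoskeleton and membrane, Trio, an activator of small GTPases in growing axons, was at 7.16 and 6.87 TPM in its single model. Ank2, the ankyrin that ties membrane proteins to the spectrin cytoskeleton, was at 82.4 and 84.9 TPM over 34 models, the most of any listed gene. The largest Ank2 share was 24.0% and 24.4% (Ank2-208), and the posterior intervals of that model overlapped between libraries. Models that are absent from the newer annotation held 46.6% and 47.9% of its reads, among them transcripts of 13865 and 14308 bases. The 6.66% and 9.40% of Ank2 TPM that fell in complete coding transcripts therefore leaves out models whose class is not known, and Ank2-208 itself is 5208 bases long in the files and 14305 in the newer annotation.

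Across the 30 genes with more than 1 model, the leading model by TPM was complete coding in 21, incomplete coding in 5, and noncoding or a decay target in 4. It was the same in both libraries in 27, and its share differed by a median of 2.12 percentage points, by under 5 points in 21 genes and by at most 14.9 points (Trip12). Of the 28 with a mean of 10 TPM or more, 19 had a leading model under 60% of TPM, against 40.6% of the 6798 protein-coding genes filtered alike, and 9 had a leading model other than complete coding, against 12.7%. Complete coding transcripts held a median of 60% of TPM and 87.8% of reads in these 28 genes, and 85.5% and 94.2% in the 6798. Long genes also had divided models: of the 243 filtered genes with a coding sequence at least as long as the list's median, 70.0% had a leading model under 60%. In 89 of these 243 the leading model was other than complete coding. Their complete coding transcripts held a median of 48.2% of TPM and 84.4% of reads. Those 243 genes are all at or above the list's median coding length, and no comparison with genes matched to the shorter listed genes was made.

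**Figure D2:**
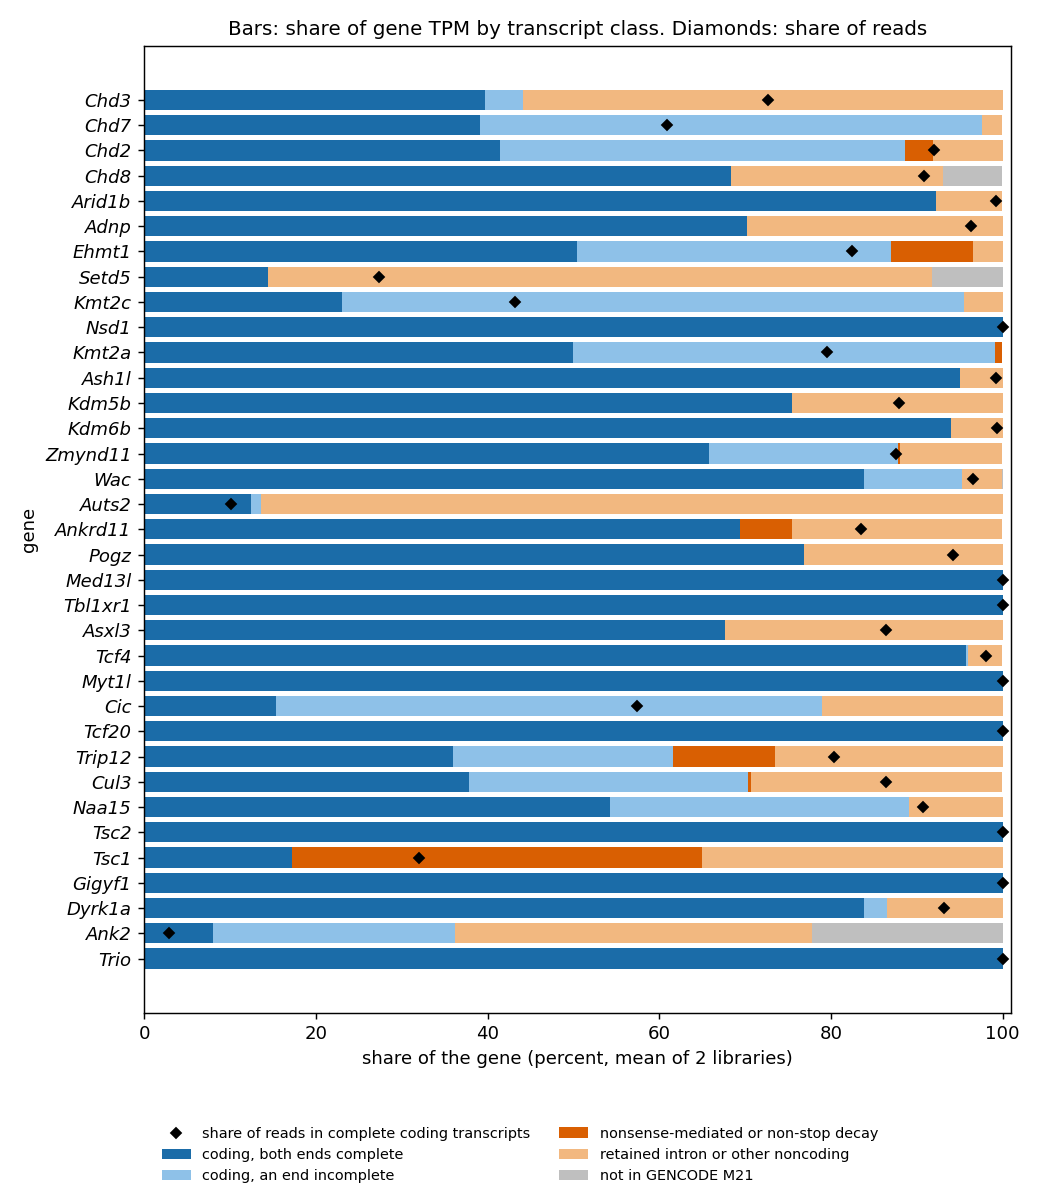
Share of each gene's TPM (bars, mean of 2 libraries, percent) by annotated transcript class, and share of its reads in complete coding transcripts (diamonds). In Cul3, Chd2, Trip12 and Cic the diamonds lie far to the right of the dark bars, while in Setd5, Tsc1, Auts2 and Ank2 both stay below 35%.

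**Figure D3:**
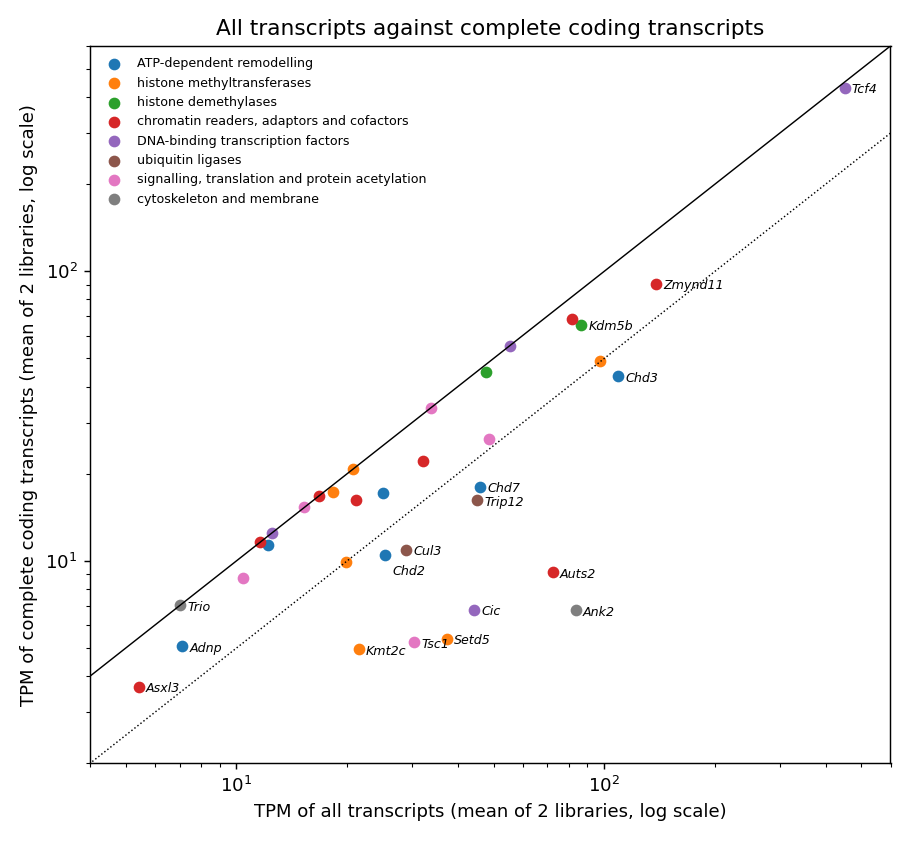
Mean TPM of all transcripts against mean TPM of complete coding transcripts (both log scales), 1 point per gene, coloured by role. The solid line marks equal values and the dotted line 50% of them. In 11 genes complete coding transcripts held under 50% of TPM in both libraries, among them Auts2, Ank2, Cic, Setd5, Tsc1 and Kmt2c, and Tcf4 and Zmynd11 remain highest by both measures.

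The pools agreed closely for these genes. The SD between pools was a median of 2.62% of the mean TPM and under 5% for 26 of 35 genes. After TMM scaling (a normalization that assumes most genes unchanged), 1 of 35 was higher in replicate 2 by a log2 ratio over 0.32, against 6.45% of 15398 protein-coding genes with 10 reads, and 0 of 35 were lower by as much, against 8.94%. The 1 gene was Adnp, at a log2 ratio of 1.73, and with the reads of Gm20716 added the ratio was 0.39. Next came Ankrd11 (0.26) and Chd7 (0.22), and at the other end Tbl1xr1 (-0.11) and Dyrk1a (-0.09). The median absolute log2 ratio was 0.055 in the list and 0.061 in protein-coding genes with at least as many reads as its least covered member, so the spread of the list was near that of well-covered genes.

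**Figure D4:**
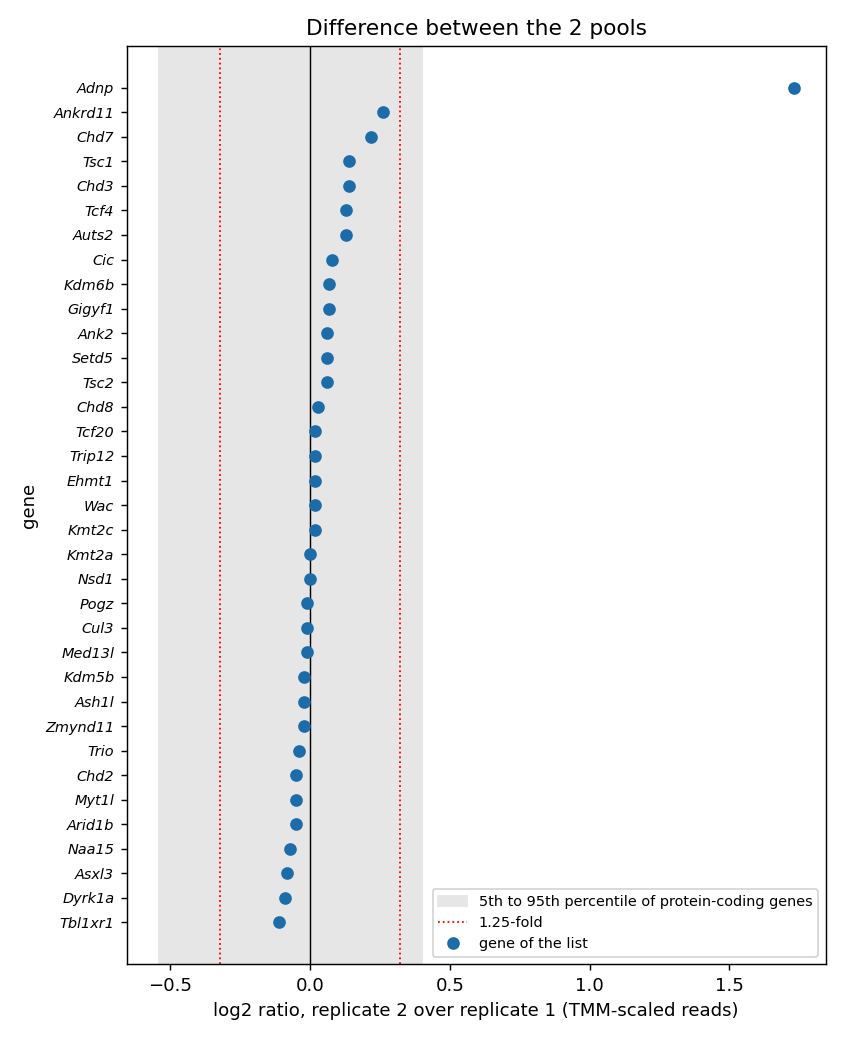
Log2 ratio of TMM-scaled reads, replicate 2 over replicate 1, for the 35 genes in order, with the 5th to 95th percentile of protein-coding genes (grey, -0.54 to 0.40) and dotted lines at 0.32 either way. Adnp at 1.73 lies outside the grey band and the other 34 lie between -0.11 and 0.26.

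Most listed genes belong to families whose other members could be compared in the same libraries. In 22 of 35 pairs the listed gene was higher in TPM than its family member in both libraries by more than the SD of the log2 ratio, in 12 it was lower, and for Adnp against Adnp2 (13.8 and 12.7 TPM) the difference was within the spread, though Adnp was lower by complete coding TPM and by reads without length correction. The call was the same by TPM, by complete coding TPM and by reads without length correction in 22 of the 35 pairs. A call can rest on a small ratio, as for Ehmt1 over Ehmt2 at 1.07-fold. The pairs were chosen with earlier results of these data known, and several listed genes enter more than 1 pair. No pairs of other genes were counted, so the counts describe these pairs only.

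Among the pairs that kept their direction by all 3 measures, Tcf4 exceeded its fellow E-proteins Tcf3 (71.6 and 74.6 TPM) by a log2 ratio of 2.62 ± 0.04 and Tcf12 (51.5 and 47.9 TPM) by 3.18 ± 0.15 (SD, n = 2). Ank2 exceeded the erythrocyte ankyrin Ank1 (1.14 and 1.79 TPM) by 5.77 ± 0.40. Chd3 exceeded the neuronal Chd5 (29.2 and 32.3 TPM) by 1.82 ± 0.02, Kdm6b exceeded the X-linked Kdm6a (12.9 and 12.8 TPM) by 1.89 ± 0.05, and Kdm5b exceeded Kdm5a (43.4 and 41.1 TPM) by 1.03 ± 0.02 and Kdm5c (27.8 and 31.9 TPM) by 1.54 ± 0.17. Myt1l was above Myt1 (19.4 and 21.6 TPM) by 1.43 ± 0.16 and above St18 (19.8 and 18.3 TPM) by 1.53 ± 0.03. Chd2 over Chd1 (21.7 and 19.0 TPM), Chd7 over Chd9 (7.89 and 7.86 TPM), Kmt2a over Kmt2b (8.57 and 9.85 TPM), Med13l over Med13 (10.6 and 10.1 TPM), Naa15 over Naa16 (21.5 and 20.2 TPM) and Zmynd11 over Zmynd8 (65.9 and 69.9 TPM) went the same way, by mean log2 ratios from 0.32 to 2.52. The size of several ratios depended on the measure. By complete coding transcripts the log2 ratio was 3.49 for Kdm5b over Kdm5a, 3.50 for Chd3 over Chd5 and 1.18 for Chd7 over Chd9. It was 2.77 for Naa15 over Naa16, 1.99 for Kmt2a over Kmt2b, 2.39 for Myt1l over St18 and 1.84 for Zmynd11 over Zmynd8. For Ank2 over Ank1 it was 2.61, which leaves out Ank2 models whose class is not known.

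In the other direction, Arid1b was below Arid1a (33.9 and 33.2 TPM), the alternative subunit of the same complex, by a log2 ratio of -1.45 ± 0.02 (SD, n = 2). Tbl1xr1 was below Tbl1x (46.4 and 44.6 TPM) by -1.97 ± 0.05, Trio below its paralogue Kalrn (27.3 and 27.8 TPM) by -1.96 ± 0.06, and Nsd1 below Nsd2 (70.6 and 69.2 TPM) by -1.75 ± 0.01. Asxl3 was below both Asxl1 (10.8 and 14.1 TPM) and Asxl2 (11.7 and 12.2 TPM), and Setd5 was below Kmt2e (63.0 and 61.0 TPM) by -0.73 ± 0.03. By complete coding transcripts the ratio of Setd5 to Kmt2e was -3.50, that of Nsd1 to Nsd2 -0.93 and that of Asxl3 to Asxl2 -0.35 (-1.12 in all transcripts). By reads without length correction, Trio against Kalrn was at -0.45 and Nsd1 against Nsd2 at -0.45. A member of the list was thus not always the main message of its family in this tissue.

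The remaining pairs depended on the measure. Chd3 was above Chd4 (80.4 and 90.6 TPM) by 0.35 in all transcripts and at -0.14 in complete coding ones, and Ehmt1 against Ehmt2 (90.3 and 92.4 TPM) went from 0.09 to -0.33. Kmt2c against Kmt2d (11.8 and 11.4 TPM) went from 0.88 to -1.13, Ank2 against Ank3 (73.4 and 71.5 TPM) from 0.21 to -1.57, and Auts2 against Fbrsl1 (15.7 and 18.0 TPM) from 2.10 to -0.89 and against Fbrs (8.06 and 9.10 TPM) from 3.07 to 0.07. The reverse held for Gigyf1 against Gigyf2 (58.1 and 56.6 TPM; -1.90 to 0.25), Ankrd11 against Ankrd12 (88.7 and 85.1 TPM; -1.44 to 0.59) and Tcf20 against Rai1 (26.2 and 27.6 TPM; -1.10 to 0.22). Without length correction, Dyrk1a against Dyrk1b (15.0 and 15.3 TPM) turned from -0.54 to 0.68 and Nsd1 against Nsd3 (45.1 and 47.3 TPM) from -1.15 to 0.61, and Chd7 against Chd6 (32.5 and 33.3 TPM) fell within the spread.

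**Figure D5:**
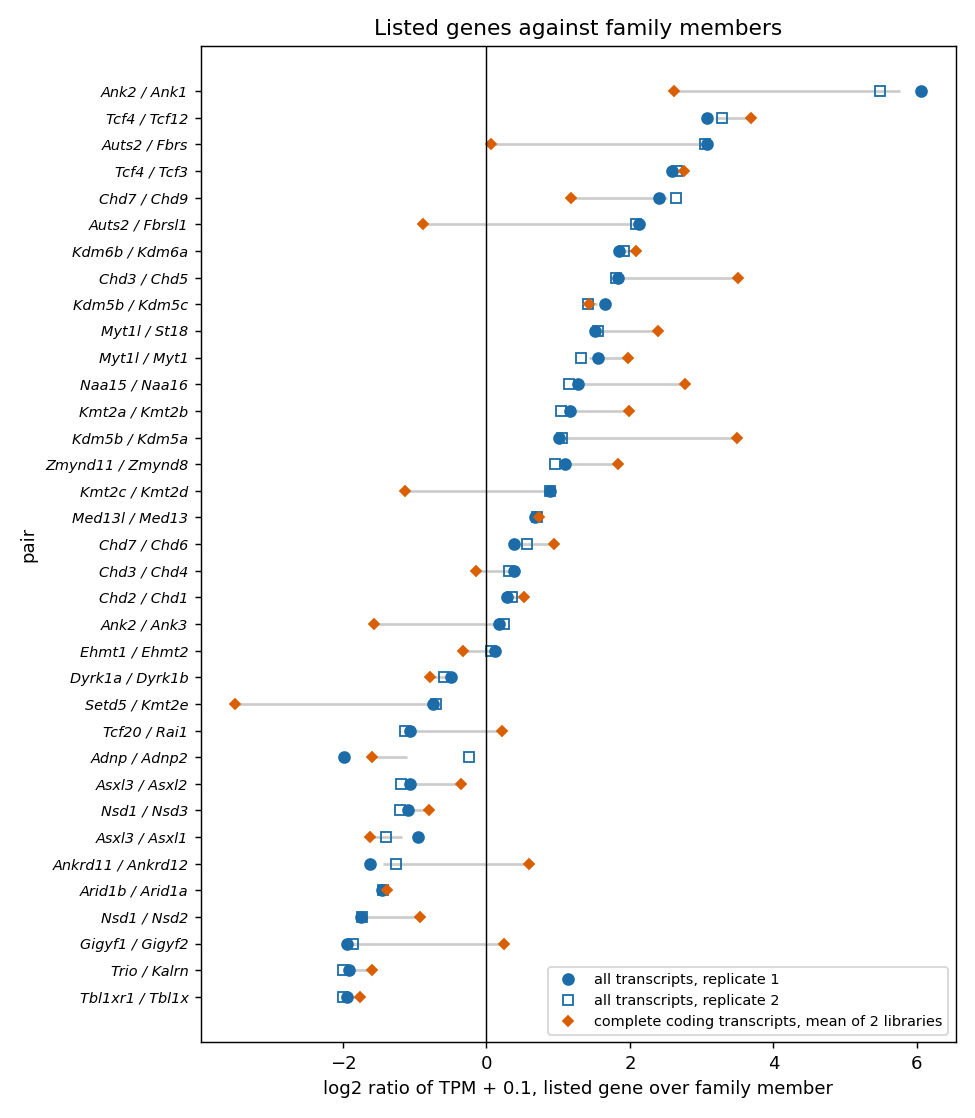
Log2 ratio of TPM + 0.1 of each listed gene over a family member in replicate 1 (circles) and replicate 2 (squares), and of the mean over complete coding transcripts (orange diamonds), for 35 pairs. The libraries lie farthest apart for Adnp with Adnp2 (-1.98 and -0.24), and the diamonds lie on the other side of zero for Chd3 with Chd4, Ehmt1, Kmt2c, Auts2 with Fbrsl1, Ank2 with Ank3, Gigyf1, Ankrd11 and Tcf20.

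In most of the chosen pairs, the partner in the same complex was more abundant by TPM than the listed gene. These pairs too were chosen with earlier results known, and no pairs of other genes were counted. Over 40 pairs with 37 partner genes, the listed gene was lower in 29, higher in 10 and within the spread in 1, and the partners had medians of 80.4 and 78.7 TPM. The partners' median coding sequence was 1614 bases, shorter than the 5424 of the listed genes and longer than the 1191 of protein-coding genes. The listed gene was higher in 22 of the 40 without length correction and in 6 by complete coding transcripts. The highest partners were Cbx3 (479 and 495 TPM), the heterochromatin protein bound by Adnp, Rbx1 (296 and 302 TPM), the RING subunit of Cul3 ligases, and Smarcb1 (274 and 276 TPM), a core BAF subunit. The lowest was Pcgf5 (10.5 TPM in both), a Polycomb protein bound by Auts2. Arid1b was below all 5 BAF subunits compared with it by every measure, including the ATPases Smarca4 and Smarca2 by log2 ratios of -3.46 ± 0.06 and -3.22 ± 0.04 (SD, n = 2). In the Mediator kinase module, Med13l was above the kinases Cdk8 by 0.25 and Cdk19 by 0.08, below the cyclin Ccnc by a log2 ratio of -1.72 ± 0.06, and within the spread of Med12 (-0.29 ± 0.31). Without length correction Med13l was above all 4, by 2.12 over Cdk8, 0.78 over Cdk19, 0.53 over Ccnc and 1.18 over Med12, and by complete coding transcripts it was above Cdk8 by 0.91 and above Med12 by 1.05. Wac was above the ligases Rnf20 and Rnf40 by 0.77 ± 0.08 and 1.00 ± 0.01.

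Of 39 other chromatin genes of developmental disorders, 36 were at 10 TPM or more in both libraries, against 40.9% of protein-coding genes. The 39 had medians of 33.9 and 33.4 TPM. They ran from Setd1b (7.64 and 8.64 TPM) to Smarcb1, Atrx (264 and 248 TPM) and Bcl11a (169 and 177 TPM). Of 22 autism risk genes of neuronal communication, all were detected at 1 TPM, against 60.6% of protein-coding genes. At 10 TPM or more stood 15 of the 22, against 40.9%. The 22 had medians of 18.1 and 16.9 TPM. Among these Ap2s1, a subunit of the clathrin adaptor of endocytosis, was highest (332 and 328 TPM). The medians of the 35 genes (29.3 and 31.5 TPM) lay between those of these 2 lists. Both lists were chosen with earlier results of these data known, so this order is a description only. By complete coding transcripts the median was 16.2 TPM for the 35 genes, 15.9 TPM for the genes of neuronal communication and 20.0 TPM for the other chromatin genes, so the distance to the neuronal list was small by that measure.

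A feature that the choice of genes did not use is size. The longest annotated coding sequence had a median of 5424 bases in the list and 1191 bases in protein-coding genes. Among protein-coding genes at 1 TPM or more in both libraries the median was 1398 bases. All 35 were above the median of all protein-coding genes, from Tbl1xr1 (1542 bases) to Kmt2c (14712 bases). The median was 5133 bases in the 39 other chromatin genes of developmental disorders and 3500 bases in the 22 autism risk genes of neuronal communication, both also above that of protein-coding genes. Gene spans had a median of 115 kilobases, against 17.7 in all protein-coding genes and 25.2 in those at 1 TPM or more in both libraries. Of the 35, 33 were above the median of all protein-coding genes. The longest was Auts2 with 1106 kilobases and the shortest Gigyf1 with 9.39. Because long messages give more reads at the same level, the list's median percentile rose from 75.9 by TPM to 89.7 by reads without length correction.

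Promoter sequences (RefSeq, GRCm38.p6, 250 bases before to 50 after the start) were at hand for 25 of the 35 genes. Counting the dinucleotide CG on the given strand and taking the richest promoter of each gene, the 25 had a median of 29.0, from 1 (Setd5) and 3 (Gigyf1) to 56 (Kmt2c) and 61 (Med13l). Over 16317 protein-coding genes with a promoter the median was 16.0. A count of 10 or more was found for 22 of the 25 (88.0%) and for 61.9% of the 16317. The listed genes are all detected, whereas the 16317 were not limited to detected genes. Whether the difference holds against detected genes alone was not tested.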

How the data were processed

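Total RNA over 200 nucleotides from 2 embryo pools (10 ng per library) was sequenced, and the labels describe the replicates as separate pools. Per the file headers and deposited notes, values refer to mm10 and GENCODE M4 and no source used here names an aligner, a quantifier or a strand setting. Expected counts, as deposited, are reads assigned by a model that divides those shared between transcripts or genes. TPM, also deposited by the authors, corrects them for effective length. A transcript's part of its gene's TPM was deposited as a percent.

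Symbols, gene types, coordinates and transcript classes were joined by identifier from GENCODE M21 on the same assembly, for 42462 of 43346 genes (98.0%). Of 293 transcripts of the listed genes, 11 are absent from M21 and 55 have another length there, so classes can be wrong for those. A model counted as complete coding only if M21 calls it protein-coding with complete ends and its length in the files is at least its M21 coding length. Exon sequences come from the M21 transcripts, printed only where both models have the same length in the files or differ by at most 3 bases.

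The listed genes, the other lists and their pairs were chosen with earlier results of these data known. All 35 genes and all family members are named, and of other lists the 3 highest and the lowest; of transcripts, the leading ones and those at 25% or more in both libraries. Some genes that this rule names are not reported here. Further transcripts, partner pairs and overlapping genes were picked after their values were seen. Levels used log2(TPM + 0.1). Pool ratios used rounded expected counts, TMM factors (edgeR 4.0.16, R 4.3.3), 0.5 added reads and a minimum of 10 summed reads. The step was tested on simulated data, where 200 genes changed 2-fold gave a median log2 ratio of 1.003. Alternatives covered posterior means, reads without length correction, pseudocounts, backgrounds, coding transcripts, DESeq2 1.42.0 size factors, spike-in totals and each library alone. Python 3.11.15 was used.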

Additional observations from a re-analysis of the deposited data

How the results depend on the processing

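No paired analysis was possible because there is 1 group. Detection at 1 TPM held for all 35 genes under every setting run, and the counts at 10 TPM ran from 24 (complete coding transcripts) to 33. The log2 difference from protein-coding genes, 2.65, became 3.79 by reads without length correction, 2.45 with a pseudocount of 1, 0.54 against genes at 1 TPM, 1.94 against genes of at least the list's median effective length, 2.40 by coding transcripts, 2.18 by complete coding transcripts and 2.02 by all reads over the longest complete coding transcript. Each library alone gave 2.59 to 2.72. The median percentile, 75.9, became 89.7, 60.3, 87.4, 72.6, 70.0 and 69.6 under the same settings, in that order and without the pseudocount, and 75.2 to 76.5 by library. The median coding share of TPM, 87.4%, was 60% for complete coding transcripts. Scaling by spike-in totals moved the median of all protein-coding genes by 0.20 and that of the list from 0.02 to 0.22, and put 7 genes past a log2 ratio of 0.32 instead of 1. The listed gene was higher in 22 complex partner pairs by reads without length correction and in 6 by complete coding transcripts, instead of 10. The complete coding and longest-transcript settings and the sum of Adnp with Gm20716 were chosen after seeing the data. Each library's shares of short models rest on few reads: Cic-204 and Cul3-205 are examples above.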
